A study of Mus musculus with 6 samples.

Results

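The 9 genes described here are Cdon and the genes around it in Hedgehog signalling, the co-receptors Cdon, Boc and Gas1, the receptor Ptch1, the transducer Smo, the inhibitor Sufu and the transcription factors Gli1, Gli2 and Gli3. They were matched by gene symbol among 23038 listed genes, and all 9 were listed. The set was selected on a measured value, since Cdon was picked for its lower level in siQk than in siNC and the other 8 genes were added for their role beside it. The difference of Cdon between the groups is therefore given as a description with no test.

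The cells were NSC-34, a mouse line from the fusion of a neuroblastoma with embryonic motor neurons of the cord. In all, 3 libraries came from cells that received control siRNA (siNC) and 3 from cells that received siRNA for the Qk gene (siQk), and cells of both groups were collected 72 hours after transfection. Qk encodes the Quaking RNA-binding proteins, which act on splicing, stability and translation of RNA. The labels state that 3 different siRNAs against Qk were used, without saying which library received which, so libraries are named by group and by the replicate number in their titles. The siQk libraries may therefore differ in siRNA as well as in culture. A clone number for the line is not given in the sources used here.

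Hedgehog ligands are secreted proteins that pattern the ventral spinal cord, where Sonic hedgehog specifies motor neuron progenitors. At the cell surface the ligand binds Patched, with Cdon, Boc and Gas1 as co-receptors, and this relieves the block that Patched places on Smoothened. Smoothened then acts through the primary cilium on Gli factors, which Sufu holds back in the cytoplasm in the absence of ligand. Cdon and Boc are close relatives, single-pass membrane proteins with immunoglobulin and fibronectin repeats, and Cdon was first known for its part in muscle differentiation.

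Library totals ran from 43000503 to 53565950 counts. Qk, the gene targeted by the siRNA, stood at 9.67, 8.18 and 14.9 RPKM (counts divided by exon length and library size) in siNC replicates 1 to 3 and at 1.39, 1.71 and 1.10 RPKM in siQk replicates 1 to 3. Every library was on the side of its label. The edgeR quasi-likelihood test gave a log2 fold change of -2.997 (SE 0.34) and an adjusted p of 0.0149 for it. Of 12665 genes tested, 1 was called changed (0.00790%), and that gene was Qk. The edgeR exact test called 5 genes and DESeq2 called 19, and without siNC replicate 1 the count was 0, with Qk at an edgeR adjusted p of 0.125. Among markers of the line, the neuroblastoma gene Hand2 stood at 176 ± 26.9 RPKM in siNC (SD, n = 3). Of 9 motor neuron markers 5 were tested, with 0 called in the edgeR quasi-likelihood test and 1, Isl1, called in DESeq2, and the other 4, Mnx1 and Chat among them at 0.0411 and 0.0509 RPKM in siNC, were below 1 RPKM in every library. The 5 tested were Isl1, Slc18a3, Nefl, Nefm and Prph, at 4.79, 2.02, 55.6, 12.9 and 698 RPKM in siNC. In siQk, Slc18a3, Nefl, Nefm and Prph stood at 1.93, 65.3, 16.3 and 561 RPKM, each with overlapping groups. Of the 5 log2 fold changes, 2 were below 0 and 3 above. Isl1 stood at 4.83, 4.75 and 4.795 RPKM in siNC and at 9.63, 7.80 and 8.33 RPKM in siQk, with groups that did not overlap (log2 fold change 0.82, SE 0.10, edgeR adjusted p 0.9996). Summed levels of astrocyte markers (4 genes) and of microglia and leukocyte markers (4 genes) were at most 0.217 and 0.222 RPKM in any library. The summed level of 6 fibroblast markers was 3.13 to 5.34 RPKM in siNC and 0.972 to 2.98 RPKM in siQk. Of these, Pdgfrb made up most of the sum, and Col3a1, Col1a2 and Lum were at or near 0. Summed oligodendrocyte lineage markers (8 genes, with Sox10 and Olig2 at or near 0) ran from 9.497 to 11.01 RPKM in siNC and from 6.98 to 10.7 RPKM in siQk. The part of these marker levels in the results was not tested. In bulk libraries such as these, fewer cells that use a gene and less RNA per cell cannot be told apart.

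Cdon (Entrez 57810) is a protein-coding gene on the plus strand of GRCm38 chromosome 9, from 35421128 to 35507652, and its exons overlap those of no other annotated gene. Quaking proteins are known to bind RNA at ACUAAC or ACUAAU, often with UAAC or UAAU close by. These letters were searched as DNA on the sense strand of the longest spliced protein-coding transcript of each gene (GENCODE release 21 of the mouse, GRCm38). Cdon held 2 such cores, both ACTAAT and both in the 3' untranslated region, at chr9:35504770-35504775 and chr9:35505977-35505982. They are shown because Qk was the gene knocked down, with the core in capitals and 9 bases on either side. Ptch1 also held 2 cores in its 3' untranslated region, at chr13:63509458-63509463 and chr13:63508848-63508853, minus strand, and Smo held 1 in its coding sequence, at chr6:29760238-29760243, plus strand.
Cdon site 1: cagaaaaacACTAATactgattta
Cdon site 2: agatactgtACTAATcaactttat
Ptch1 site 1: ttgtaaggtACTAATtggaagcca
Ptch1 site 2: agagtgcttACTAATgttaaatag
Smo site 1: cattcccgcACTAACctaatggag

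The other 6 members held no core. Both Cdon cores lacked a TAAC or TAAT within 20 bases on either side, whereas site 2 of Ptch1 and the site of Smo had one. Among 12050 tested genes with such a transcript, 45.2% held at least 1 core and 20.05% held as many as Cdon or more. Per kilobase, Cdon had 0.267 cores, above 67.8% of those genes, and Qk itself had 0.819, above 95.4%. A match is not evidence of binding, and introns were not searched here. GACCACCCA, the letters bound by Gli factors, was searched on both strands of the 7 member promoters that the RefSeq table for GRCm38 holds, windows of 300 bases at gene starts, and was found in 0 of them. It occurred in 0.253% of 32851 promoters.

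In siNC the members covered a wide span of levels. Ptch1 was highest at 14.6 ± 3.73 RPKM (SD, n = 3), followed by Smo at 5.74 ± 0.647, Cdon at 5.16 ± 0.0502 and Sufu at 5.15 ± 0.445 RPKM. Boc came next at 0.994 ± 0.363 and Gli1 at 0.186 ± 0.0981 RPKM. Gas1 had a mean of 0.00697 RPKM, and Gli2 and Gli3 had no count in any library. The ranges of the 3 siNC libraries of Smo, Cdon and Sufu overlapped, so their order was not resolved, while Ptch1 was above Smo, Sufu above Boc, Boc above Gli1 and Gli1 above Gas1 with no overlap. Cdon ranked above 32.3% of the genes tested and above 62.7% of all genes listed. Thus a receptor, a transducer, an inhibitor and mainly 1 co-receptor were present in these cells. Of the Gli transcription factors, Gli1 was low at 0.186 RPKM, and Gli2 and Gli3 had no count.

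**Figure D1:**
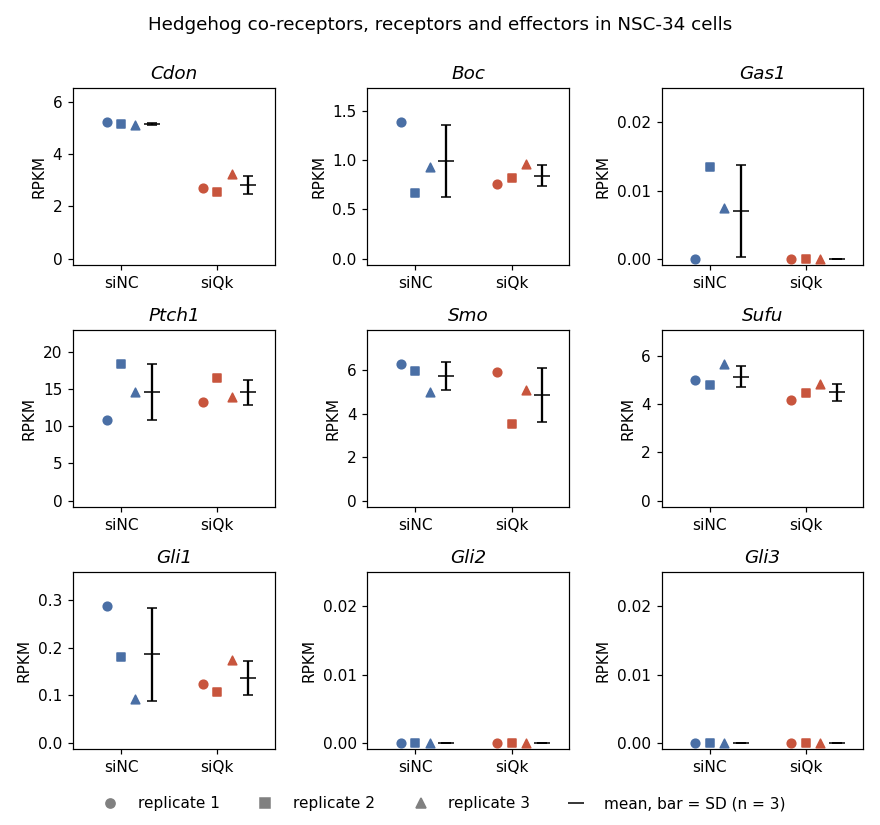
RPKM of each member in the 3 siNC libraries (blue) and the 3 siQk libraries (red), with marker shapes for replicates 1 to 3 and a bar for the mean and SD of each group. Each panel has its own linear axis in RPKM, so heights compare within a panel only. The 3 Cdon points of siQk lie between 2.54 and 3.22 RPKM, below all 3 siNC points, and in the other 8 panels the groups overlap.

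Cdon stood at 5.22, 5.15 and 5.12 RPKM in siNC replicates 1 to 3 and at 2.70, 2.54 and 3.22 RPKM in siQk replicates 1 to 3. All 3 siQk libraries lay below all 3 siNC libraries, and siQk replicate 3 was the highest of its group. Behind these levels were 1609 to 1942 counts a library in siNC and 900 to 1086 in siQk. The siQk mean of 2.82 ± 0.359 RPKM (SD, n = 3) was 54.6% of the siNC mean, a log2 fold change of -0.90 (SE 0.11). The smallest Cdon level did not fall in the library with the least Qk. Relative to the siNC means, Qk remained at 12.7%, 15.7% and 10.1% and Cdon at 52.3%, 49.1% and 62.4% in siQk replicates 1, 2 and 3.

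In RPKM, which is scaled by exon length and column total, the agreement of the siNC libraries on Cdon was unusually close. Their coefficient of variation was 0.971%, below the 2.37% that counting error alone gives at 1609 to 1942 counts, and 0.205% of the genes tested had a smaller one. The median over all genes tested was 18.2%, and 2.81% of them were, like Cdon, below their own counting error in siNC. In siQk the coefficient of variation of Cdon was 12.7%. The SE given for Cdon comes from TMM-scaled log2 CPM, so the siNC spread in RPKM is not the one it rests on. The TMM factors of siNC replicates 1 to 3 were 0.999, 1.02 and 0.956. The log2 fold change without each library in turn ran from -1.01 (without siQk replicate 3) to -0.83 (without siQk replicate 2).

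Boc, the relative of Cdon (Entrez 117606, chromosome 16, 44485049 to 44558897, minus strand), stood at 1.38, 0.666 and 0.931 RPKM in siNC and at 0.754, 0.820 and 0.958 RPKM in siQk. The siQk levels lay within the siNC range, whose top was siNC replicate 1. On the log2 scale Boc differed by -0.26 (SE 0.33), with 0.9996 as adjusted p from edgeR, and by -0.50 without siNC replicate 2 to 0.04 without siNC replicate 1. Gas1, a co-receptor anchored to the membrane by a lipid (Entrez 14451, chromosome 13, 60174405 to 60177365, minus strand), had 0, 2 and 1 counts in siNC and none in siQk, where a count of 0 allows up to 0.0179 to 0.0210 RPKM per library at a limit of 3 counts. Its exons overlap a long noncoding RNA gene on the opposite strand over 589 bases, and no fold is given for counts this low. Summed over the 3 co-receptors, the level was 6.17 ± 0.397 RPKM in siNC against 3.67 ± 0.450 RPKM in siQk (SD, n = 3). Cdon supplied 79.0% to 88.3% of that sum in siNC libraries and 75.6% to 78.2% in siQk libraries. Most co-receptor transcript in either group was thus Cdon.

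Ptch1, the receptor that is also a classic target of the pathway (Entrez 19206, chromosome 13, 63508328 to 63573598, minus strand), stood at 10.9, 18.3 and 14.6 RPKM in siNC and at 13.3, 16.5 and 13.9 RPKM in siQk. All 3 siQk libraries lay inside the siNC range. The group means of 14.6 ± 3.73 and 14.6 ± 1.68 RPKM (SD, n = 3) gave a log2 fold change of -0.03 (SE 0.23). Smo, the transducer released when ligand binds Patched (Entrez 319757, chromosome 6, 29735503 to 29761365, plus strand), stood at 6.26, 5.94 and 5.02 RPKM in siNC and at 5.93, 3.50 and 5.10 RPKM in siQk. The groups overlapped, and siQk replicate 2 was the lowest of the 6 libraries. On the log2 scale Smo differed by -0.27 (SE 0.24), and by -0.44 without siQk replicate 1 to -0.08 without siQk replicate 2. Sufu, the inhibitor that binds Gli proteins (Entrez 24069, chromosome 19, 46396896 to 46488804, plus strand), stood at 4.99, 4.798 and 5.65 RPKM in siNC and at 4.16, 4.47 and 4.86 RPKM in siQk. The groups overlapped, since siQk replicate 3 was above siNC replicate 2. On the log2 scale Sufu differed by -0.22 (SE 0.12), and by -0.30 without siNC replicate 2 to -0.12 without siNC replicate 3. For Ptch1, Smo and Sufu the edgeR quasi-likelihood adjusted p was 0.9996 each, and the two-sided exact permutation p over 3 against 3 was 1, 0.4 and 0.2.

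Gli1, the activator whose own transcript is a readout of Hedgehog activity (Entrez 14632, chromosome 10, 127329882 to 127341974, minus strand), had 67, 39 and 18 counts in siNC and 26, 26 and 37 counts in siQk. That is 0.287, 0.180 and 0.0914 RPKM in siNC and 0.125, 0.106 and 0.175 RPKM in siQk. The groups overlapped, and the level was too low for Gli1 to enter the test. Its exons overlap those of 2 genes on the opposite strand, Arhgap9 among them, over 327 bases, and the kit keeps no strand information, so part of these counts could belong to them. Gli2, the main activator of the family (Entrez 14633, chromosome 1, 118834132 to 119053619, minus strand), and Gli3, its main repressor (Entrez 14634, chromosome 13, 15463235 to 15730026, plus strand), had 0 counts in all 6 libraries. A count of 0 allows up to 0.00835 to 0.0104 RPKM per library for Gli2 and 0.00584 to 0.00728 RPKM for Gli3. The sum of the 3 Gli transcripts was at most 0.287 RPKM in any library, against at least 10.9 RPKM for Ptch1. These limits cover counting error only.

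Of the 9 members, 5 passed the filter on low counts (Cdon, Boc, Ptch1, Smo and Sufu), and Gas1, Gli1, Gli2 and Gli3 did not. Of the 4 tested members other than Cdon, 0 were called in the edgeR quasi-likelihood test, where 0.00790% of all genes were, and 0 were called in the edgeR exact test or DESeq2. At an unadjusted p under 0.05 there were 0 of these 4, against 2.89% of all genes tested. Groups that did not overlap were found for 0 of the 4, where 3.49% of genes tested were lower and 5.35% higher in every siQk library than in any siNC library. The 4 log2 fold changes were all below 0, from -0.27 to -0.03, and their median was -0.24 beside 0.0034 over all genes tested.

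**Figure D2:**
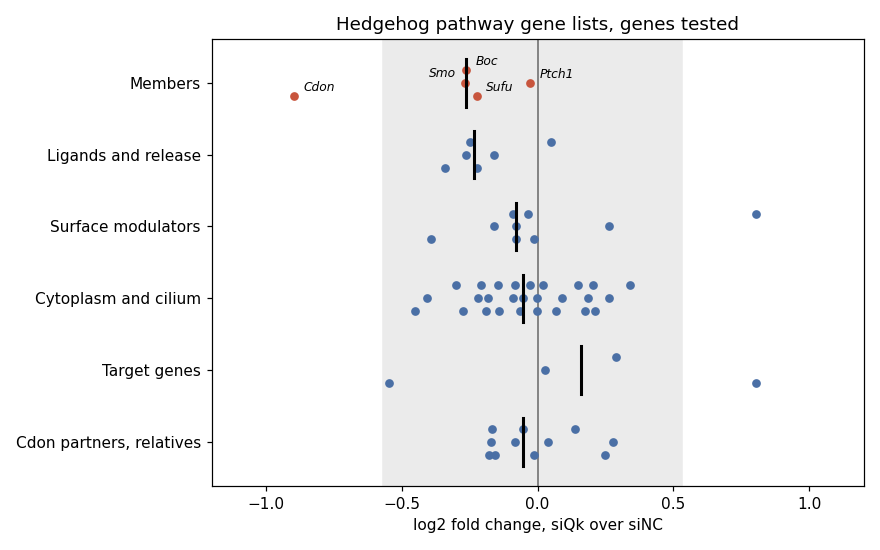
Log2 fold change of siQk over siNC for tested genes of 6 lists, 1 point per gene, with a black line at each list's median, a grey line at the median of all 12665 genes and a grey band over the central 95% of them (-0.57 to 0.53). Cdon at -0.90 lies left of the band, and Boc, Smo, Sufu and Ptch1 lie inside it.

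The rest of the pathway was read from 4 lists holding 59 genes, 45 of them tested, and 0 were called in the edgeR quasi-likelihood test, the edgeR exact test or DESeq2. At an unadjusted p under 0.05 there were 2 of 45, Prkar1a and Bcl2, both lower in siQk, against 2.89% of all genes. The groups did not overlap for 3 of 45, all lower in siQk, beside 3.49% lower and 5.35% higher of all genes tested. Log2 fold changes were below 0 for 30 genes and above 0 for 15, with a median of -0.078. All adjusted p-values of the genes named from these lists were 0.9996 in the edgeR quasi-likelihood test.

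Among ligands and the proteins that release them (10 genes, 6 tested), Desert hedgehog was the ligand present. Dhh stood at 6.84, 4.07 and 2.85 RPKM in siNC and at 4.33, 3.35 and 3.93 RPKM in siQk, with overlapping groups. Shh and Ihh did not exceed 0.0420 and 0.123 RPKM in any library. Disp2, of the Dispatched family that exports ligand, was the most abundant of the list at 36.2 ± 7.69 against 29.1 ± 3.23 RPKM (siNC and siQk, SD, n = 3), with a log2 fold change of -0.34 (SE 0.18) that ran from -0.46 without siNC replicate 3 to -0.18 without siNC replicate 1. Scube1, a secreted ligand carrier, and Hhat, which adds palmitate to the ligand, gave -0.25 (SE 0.28) and -0.22 (SE 0.25). Both were nearest 0 without siQk replicate 2 (-0.06 and -0.02), while Scube1 reached -0.42 without siQk replicate 3 and Hhat -0.36 without siQk replicate 1. The median of the 6 tested genes was -0.24.

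Among surface modulators (11 genes, 9 tested), Mgrn1, a ubiquitin ligase that acts on Smo, stood at 13.4, 16.1 and 10.96 RPKM in siNC and at 7.82, 13.0 and 10.4 RPKM in siQk. The groups overlapped, and the log2 fold change was -0.39 (SE 0.25), with a range from -0.58 without siQk replicate 2 to -0.22 without siQk replicate 1. Evc, a ciliary partner of Smo, gave 0.26 (SE 0.16), from 0.14 without siNC replicate 3 to 0.35 without siNC replicate 2. The ligand trap Hhip and the glypican Gpc3 were at or near 0, with Hhip at most 0.00233 RPKM. The median of the 9 tested genes was -0.078.

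The regulators in the cytoplasm and cilium (27 genes, 27 tested) had a median log2 fold change of -0.055, with 17 below 0 and 10 above. Prkar1a, the regulatory subunit that restrains protein kinase A, the kinase that marks Gli proteins for processing, stood at 570, 511 and 620 RPKM in siNC and at 454, 402 and 413 RPKM in siQk. The groups did not overlap, and its log2 fold change was -0.45 (SE 0.12, unadjusted p 0.0122 and adjusted p 0.9996 in the edgeR quasi-likelihood test). Tulp3, which carries receptors into the cilium, also had groups that did not overlap, at 13.4 ± 1.44 RPKM in siNC against 10.3 ± 2.26 RPKM in siQk (SD, n = 3). Tulp3 differed by -0.41 on the log2 scale (SE 0.23), and by -0.51 without siQk replicate 3 to -0.24 without siQk replicate 2. Gsk3b, another kinase of Gli processing, gave -0.27 (SE 0.22), from -0.43 without siNC replicate 2 to -0.07 without siNC replicate 3. Prkaca, a catalytic subunit, stood at 77.9 ± 17.3 and 91.0 ± 8.16 RPKM (SD, n = 3).

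Of 13 target genes 4 were tested, and the other 9, which did not pass the filter on low counts, were below 1 RPKM in every library. The ventral spinal cord targets Nkx2-2, Nkx6-1, Foxa2 and Olig2 were at or near 0, each at most 0.00954 RPKM. Bcl2, an inhibitor of apoptosis, stood at 1.96, 2.35 and 2.57 RPKM in siNC and at 1.75, 1.38 and 1.67 RPKM in siQk. The groups did not overlap, and its log2 fold change was -0.55 (SE 0.17, unadjusted p 0.0357 and adjusted p 0.9996 in the edgeR quasi-likelihood test). Leaving out siNC replicate 3 and siQk replicate 2 together gave -0.33 for Bcl2. Mycn gave 0.29 (SE 0.25), from 0.09 without siNC replicate 3 to 0.47 without siNC replicate 1. Ccnd1, the cyclin of G1 phase, was the most abundant target at 112 ± 33.5 RPKM in siNC against 116 ± 17.1 RPKM in siQk (SD, n = 3). The median of the 4 tested targets was 0.16.

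The last list held 15 genes for proteins that bind Cdon or share its repeats, of which 11 were tested and 0 were called in the edgeR quasi-likelihood test, the edgeR exact test or DESeq2 (0.00790% of all genes in the first of these), with 0 at an unadjusted p under 0.05 (2.89% of all genes). Counts of 0 among 11 genes are near those shares. Their log2 fold changes ran from -0.18 to 0.28 with a median of -0.053. Neo1, the netrin receptor relative that Cdon binds, stood at 27.5, 29.1 and 33.1 RPKM in siNC and at 23.8, 39.6 and 23.1 RPKM in siQk, with siQk replicate 2 the highest of the 6 libraries. Cdh2, the N-cadherin through which Cdon acts at cell contacts, gave 0.28 (SE 0.17), reaching 0.44 without siNC replicate 2 and 0.18 without siQk replicate 2. Cdh15, or M-cadherin, gave 0.25 (SE 0.19), from 0.11 without siNC replicate 3 to 0.41 without siNC replicate 1. Spag9, a scaffold of the JNK and p38 kinases that binds Cdon, gave -0.17 (SE 0.16), from -0.30 without siNC replicate 1 to -0.07 without siNC replicate 3. The guidance receptor Dcc and Robo4 had 0 counts in every library.

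The genes whose levels followed Cdon most closely over the 6 libraries were Tcta, Ccdc28a, Agap1, Kctd2 and Daam2, with Pearson r of TMM-scaled log2 CPM from 0.979 to 0.992. Such a correlation carries the difference between the groups that picked Cdon, and 24 genes exceeded 0.95. Of these 5 genes, Daam2, a formin, was the one with a larger log2 fold change than Cdon (-1.43), and Tcta had the smallest (-0.24). With the group means removed, the closest genes were Epas1, Gnal, Ankrd46, Stip1 and Mrfap1 (r from 0.976 to 0.984), and 19 genes exceeded 0.95. None of the first 5 genes was among the second 5. The other tested members followed Cdon less closely, with r over the 6 libraries of 0.77 for Sufu, 0.60 for Smo, 0.37 for Boc and -0.06 for Ptch1. With 6 libraries of differing depth these values are descriptions.

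**Figure D3:**
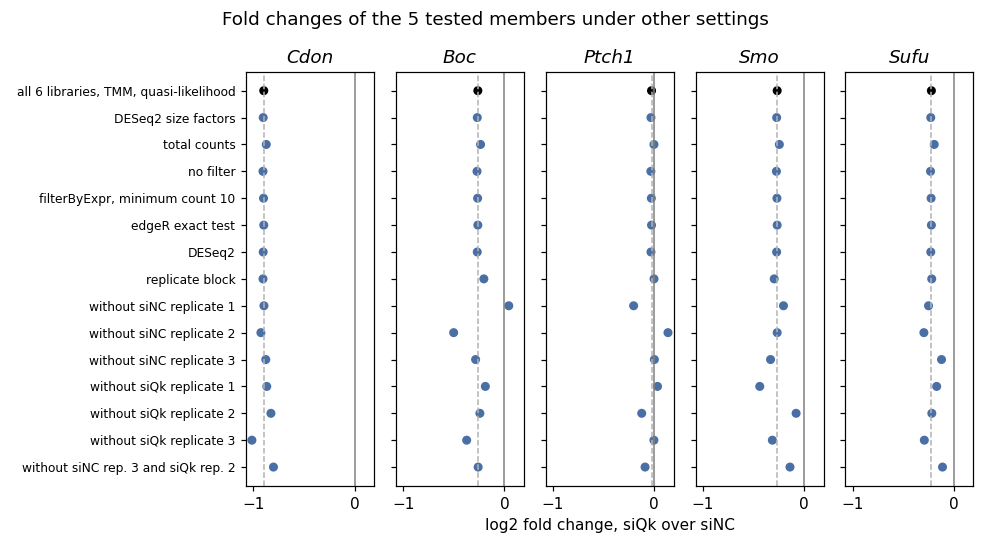
Log2 fold change of siQk over siNC for the 5 tested members under 15 settings, with the value from all 6 libraries in black and a dashed line through it, the other settings in blue and a grey line at 0. Cdon lies between -1.01 and -0.80 throughout, Smo and Sufu stay below 0, and Boc and Ptch1 cross 0 in some of the settings that leave out a library.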

How the data were processed

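Poly-A RNA of NSC-34 cells (3 siNC and 3 siQk libraries) was sequenced by the authors as pairs of 75-base reads from a TruSeq kit, aligned with OLego and counted with Quantas. The methods name the genome inconsistently, the submitters' processing notes give mm10, and versions and strand setting are not given in the sources used here. The deposited files hold an expected count per gene, the exon length and an RPKM value that the authors scaled by exon length and column total. Between 21.9% and 22.9% of expected counts were not whole and were rounded.

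Counts were TMM-scaled (factors 0.956 to 1.02). Genes with a mean log2 CPM above 0 were kept (12665) and tested in a single fit without covariates (edgeR 4.0.16, quasi-likelihood F test, run under R 4.3.3). A gene was called below 0.01 in p and below 0.1 after Benjamini-Hochberg adjustment over all genes kept. SEs come from TMM-scaled log2 CPM (prior count 2). The exact permutation test was two-sided, and 3 against 3 cannot go below 0.1. Nothing states that numbered libraries came from shared cultures. p-values measure the spread between 3 libraries per group.

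Alternatives were DESeq2 size factors, total counts, no filter, filterByExpr (minimum count 10), the edgeR exact test, DESeq2 1.42.0, a replicate block and leaving out each library. Leaving out siNC replicate 3 and siQk replicate 2 together was added after the data were seen. Scripts were tested on simulated data.

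The members and lists were chosen with earlier results of these data known. Genes named from a list are those called or, failing that, the 3 with the smallest p, except where a gene is not reported here. Others named (such as Dhh, Neo1 and Ccnd1) were chosen after their values were seen. Positions come from GENCODE release 21 (GRCm38), matched on Entrez identifiers. Grk2 is listed as Adrbk1 and was matched through RefSeq.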

Additional observations from a re-analysis of the deposited data

How the results depend on the processing

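The counts of calls among the 4 tested members other than Cdon, the 45 wider pathway genes and the 11 partners and relatives of Cdon were 0 in all 14 alternatives. The log2 fold change of Cdon stayed negative in all 14, with -0.80 when siNC replicate 3 and siQk replicate 2 were both left out and -1.01 to -0.83 over the fits that left out 1 library. The count of called genes was 1 (Qk) in 11 alternatives, 5 in the edgeR exact test, 19 in DESeq2 and 0 to 1 over the fits without 1 library (0 in edgeR without siNC replicate 1, although 538 fell below 0.05 unadjusted). Qk ran from -3.19 to -2.67 over those fits and lost its call without siNC replicate 1 (-3.09, edgeR adjusted p 0.125). Over those fits Boc ran from -0.50 to 0.043 and Ptch1 from -0.20 to 0.135. The sign reversed for Boc without siNC replicate 1 and for Ptch1 without siNC replicate 2 (0.135), siNC replicate 3 (0.00068) or siQk replicate 1 (0.032). These 4 were the reversals among 252 refits of 18 other named genes, with no change of call. The count of the 9 members with non-overlapping groups, 1 in the main analysis (Cdon, picked for its lower level), ran from 1 to 3 without 1 library (3 without siNC replicate 3, and 2 without siNC replicate 1, siNC replicate 2 or siQk replicate 3). With fewer samples compared, the share of all genes tested with such groups rose from 8.84% to between 14.3% and 22.9%. For the other shifts the cause was not tested.

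The libraries siQk replicate 2 and siNC replicate 3 were doubted because their mean correlations with the other libraries were the lowest (0.964 and 0.971). Leaving out both kept every sign among the named genes but moved several log2 fold changes by over 1.5 times. Nearer 0 were Smo (-0.14), Sufu (-0.11), Scube1 (-0.05), Hhat (-0.007), Tulp3 (-0.12), Gsk3b (-0.008), Bcl2 (-0.33), Mycn (0.12), Cdh2 (0.09), Cdh15 (0.06) and Spag9 (-0.01). Farther from 0 were Ptch1 (-0.09), Disp2 (-0.53) and Mgrn1 (-0.69).

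With the replicate block Cdon was -0.90 and Qk stayed the 1 gene called, and the block changed no other call. Deviations of same-numbered libraries from their group means correlated at 0.213, 0.018 and -0.170 for replicates 1, 2 and 3, which is why the replicate numbers are treated as names only. The most alike pair within a group had a chi-square of 24.4 per degree of freedom, far above counting noise, and no pair was treated as 1 library. At these depths counting error limits Gas1, Gli2 and Gli3.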
